A study of Mus musculus with 42 samples.

Results

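The binding of induced HOX factors was followed around 10 genes of the mouse pluripotency network, namely Pou5f1, Nanog, Sox2, Klf4, Esrrb, Zfp42, Tdgf1, Dnmt3b, Lin28a and Otx2. A binding event was counted for a gene when it fell within the gene's annotated span or the 50 kb on either side, and events of any list lying within 100 bp of each other were merged into 1 site. The 10 windows covered 1268.2 kb and held 803 events, which merged into 262 of the 377270 sites of all 21 event lists. The genes were taken for their known roles and not for their binding, although the choice was made with earlier results of these data known.

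All cells were Ainv15 mouse embryonic stem cells, each line carrying a single tagged Hox transgene at the HPRT locus that doxycycline (Dox) switches on, so every HOX protein described here was overexpressed from the same kind of locus. In the unpatterned groups, iFlag.Hoxc6 or iFlag.Hoxc9 embryoid bodies (EBs) received Dox for 12 h and no patterning signal. In the patterned groups, EBs received 1 µM retinoic acid and 0.5 µM of the smoothened agonist SAG from day 0 and 3 µg/mL Dox from day 2, which takes them toward spinal motor neurons, and were collected on day 3 after 24 h of Dox or on day 4 after 48 h. Day 3 lists exist for HOXC6, HOXC8, HOXC9, HOXA9, HOXD9, HOXC10, HOXC13 (from the human cDNA), and 4 chimeras of HOXC10 and HOXC13. In these chimeras the homeodomain and C-terminus, called the homeodomain part below, are exchanged together. In HOXC13:C10.2 and HOXC10:C13.2 the exchanged part also takes in a conserved stretch before the homeodomain. The cofactors MEIS (day 3, in iHoxc6.V5, iHoxc9.V5 and iHoxc10.V5 cells) and PBX (day 4, in iFlag.Hoxc9 and iFlag.Hoxc10 cells) were also profiled, and day 4 HOX lists exist for HOXC6, HOXC9 and HOXC10. Most HOX libraries were precipitated through the Flag tag, and the second HOXA9, HOXD9 and HOXC13 libraries through an HA tag. The first of the 3 day 3 HOXC10 libraries came from an iHoxc10.V5 line and was precipitated with a different antibody.

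Depth was 5.04 to 32.88 M reads in the 40 libraries behind the lists, and the fraction of reads given to binding signal was 0.008 to 0.527. Each group has 1 event list made from its libraries together and no value per library, so no spread between replicates could be computed and no test of a difference between groups was made. Intervals given with shares are exact 95% binomial intervals and cover counting error only. The EB HOXC9 libraries held 32.54 and 30.01 M reads with signal fractions of 0.461 and 0.491, whereas the day 3 HOXC6 libraries held 17.73 and 16.38 M with 0.08 and 0.07. Stage, duration of Dox, depth, signal fraction and control library all changed together between EBs and the patterned days, so their parts in a difference cannot be told apart. A site without an event in a list was below the calling threshold there and is not shown to be unbound.

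Pluripotent cells are held in their state by a small circuit of transcription factors in which OCT4, SOX2 and NANOG occupy each other's enhancers and those of many other genes. The naive state adds factors such as KLF4 and ESRRB, and on exit from it OTX2 and the DNA methyltransferase DNMT3B rise while the naive factors fall. SOX2 differs from the others in that it is kept on in neural progenitors, and HOX proteins are normally made only after pluripotency is lost.

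Sequences are given first for 5 sites that only the EB lists held, because they lie close to the starts of core genes or rank high in the lists. All are 101 bp centred on the site, from GRCm38 (mm10), plus strand, and capitals mark any of 6 motifs on either strand: the homeodomain core TAAT, the posterior HOX sequences TTTAT and TTTAC, the composite PBX and HOX sequence TGATTTAT, the MEIS motif TGACAG and the octamer ATGCAAAT, where TTTAT is also contained in TGATTTAT. The sites are intergenic and lie at chr17:35505065-35505165 (0.893 kb upstream of Pou5f1), chr6:122707333-122707433 (0.106 kb upstream of Nanog), chr9:110947534-110947634 (1.43 kb upstream of Tdgf1), chr4:55519808-55519908 (12.6 kb downstream of the Klf4 start) and chr2:153643203-153643303 (6.21 kb upstream of Dnmt3b).
Pou5f1 0.893 kb upstream: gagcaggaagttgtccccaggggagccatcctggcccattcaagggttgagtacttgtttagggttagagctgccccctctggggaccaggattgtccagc
Nanog 0.106 kb upstream: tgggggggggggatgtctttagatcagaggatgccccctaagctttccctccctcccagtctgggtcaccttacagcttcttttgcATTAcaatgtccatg
Tdgf1 1.43 kb upstream: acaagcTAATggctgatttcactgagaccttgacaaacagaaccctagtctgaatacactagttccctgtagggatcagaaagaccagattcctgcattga
Klf4 12.6 kb downstream: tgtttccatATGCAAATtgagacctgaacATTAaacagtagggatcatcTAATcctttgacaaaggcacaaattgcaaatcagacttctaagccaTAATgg
Dnmt3b 6.21 kb upstream: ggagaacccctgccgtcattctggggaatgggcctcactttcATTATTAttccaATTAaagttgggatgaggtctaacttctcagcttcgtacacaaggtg

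A second set shows 6 sites that patterned lists held as well. They carry the most widely shared binding near these genes or, at Lin28a, a strong EB event followed by one of much lower rank on day 3. They lie at chr3:34654966-34655066 and chr3:34666489-34666589 (4.63 and 16.2 kb downstream of the Sox2 start, both in introns of the non-coding Sox2ot), chr12:86509899-86509999 (148.8 kb downstream of the Esrrb start, in an exon of a non-coding Esrrb transcript), chr8:43283789-43283889 (23.2 kb downstream of the Zfp42 start, intergenic), chr14:48708953-48709053 (35.2 kb upstream of Otx2, in an intron of the non-coding Otx2os1) and chr4:134011337-134011437 (7.47 kb downstream of the Lin28a start, in a Lin28a intron). Capitals have the same meaning.
Sox2 4.63 kb downstream: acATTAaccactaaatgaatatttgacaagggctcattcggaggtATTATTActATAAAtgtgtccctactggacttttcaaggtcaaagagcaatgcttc
Sox2 16.2 kb downstream: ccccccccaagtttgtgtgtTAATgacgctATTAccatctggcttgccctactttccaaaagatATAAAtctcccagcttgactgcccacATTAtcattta
Esrrb 148.8 kb downstream: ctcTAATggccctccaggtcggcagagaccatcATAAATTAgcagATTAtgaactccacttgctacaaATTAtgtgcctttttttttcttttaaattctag
Zfp42 23.2 kb downstream: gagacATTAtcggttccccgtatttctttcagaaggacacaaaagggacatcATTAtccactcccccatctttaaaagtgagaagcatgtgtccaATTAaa
Otx2 35.2 kb upstream: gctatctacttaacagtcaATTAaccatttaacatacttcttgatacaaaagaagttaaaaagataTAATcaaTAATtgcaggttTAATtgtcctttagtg
Lin28a 7.47 kb downstream: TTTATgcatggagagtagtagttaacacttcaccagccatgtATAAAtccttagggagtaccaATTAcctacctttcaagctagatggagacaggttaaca

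The letters fall differently in the printed sites. The Pou5f1 site holds none of the 6 motifs, the Klf4 site holds the octamer bound by OCT4 together with TAAT, and the Sox2, Esrrb and Lin28a sites that HOXC9 held on day 3 hold both TAAT and TTTAT, while the Zfp42 and Otx2 sites hold TAAT alone. Near the 10 genes, 64.2% of the 134 EB HOXC9 sites held TAAT (55.4 to 72.3%), beside 70.7% of all EB HOXC9 sites, and 50.0% held TTTAT beside 54.2%. TAAT was in 52.1% of the 71 EB HOXC6 sites near the genes and in 58.3% of all EB HOXC6 sites. TTTAC was in 24.6% of EB HOXC9 sites near the genes beside 29.1% of all, and TGACAG in 6.72% beside 7.63%. The homeodomain motifs were thus no more frequent here than elsewhere. The octamer stood in 6 of 134 EB HOXC9 sites (4.48%, 1.66 to 9.49%) beside 2.21% of all, and the interval includes the share over all sites. TGATTTAT was in 1 of these 134 sites and in 0 of the 71 EB HOXC6 sites (upper bound 5.06%), beside 2.35% and 2.43% of all sites of the lists.

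All 10 genes had HOXC6 and HOXC9 sites in EBs. The EB HOXC9 list placed 134 sites near them and the day 3 and day 4 lists placed 49 and 29. For HOXC6 the counts were 71 in EBs, 13 on day 3 and 49 on day 4. At Pou5f1, Nanog and Tdgf1 both factors went from between 3 and 13 EB sites to 0 on day 3, and at Dnmt3b HOXC6 went from 8 to 0 while HOXC9 went from 16 to 4. The other 6 genes had sites of both factors at every stage.

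**Figure D1:**
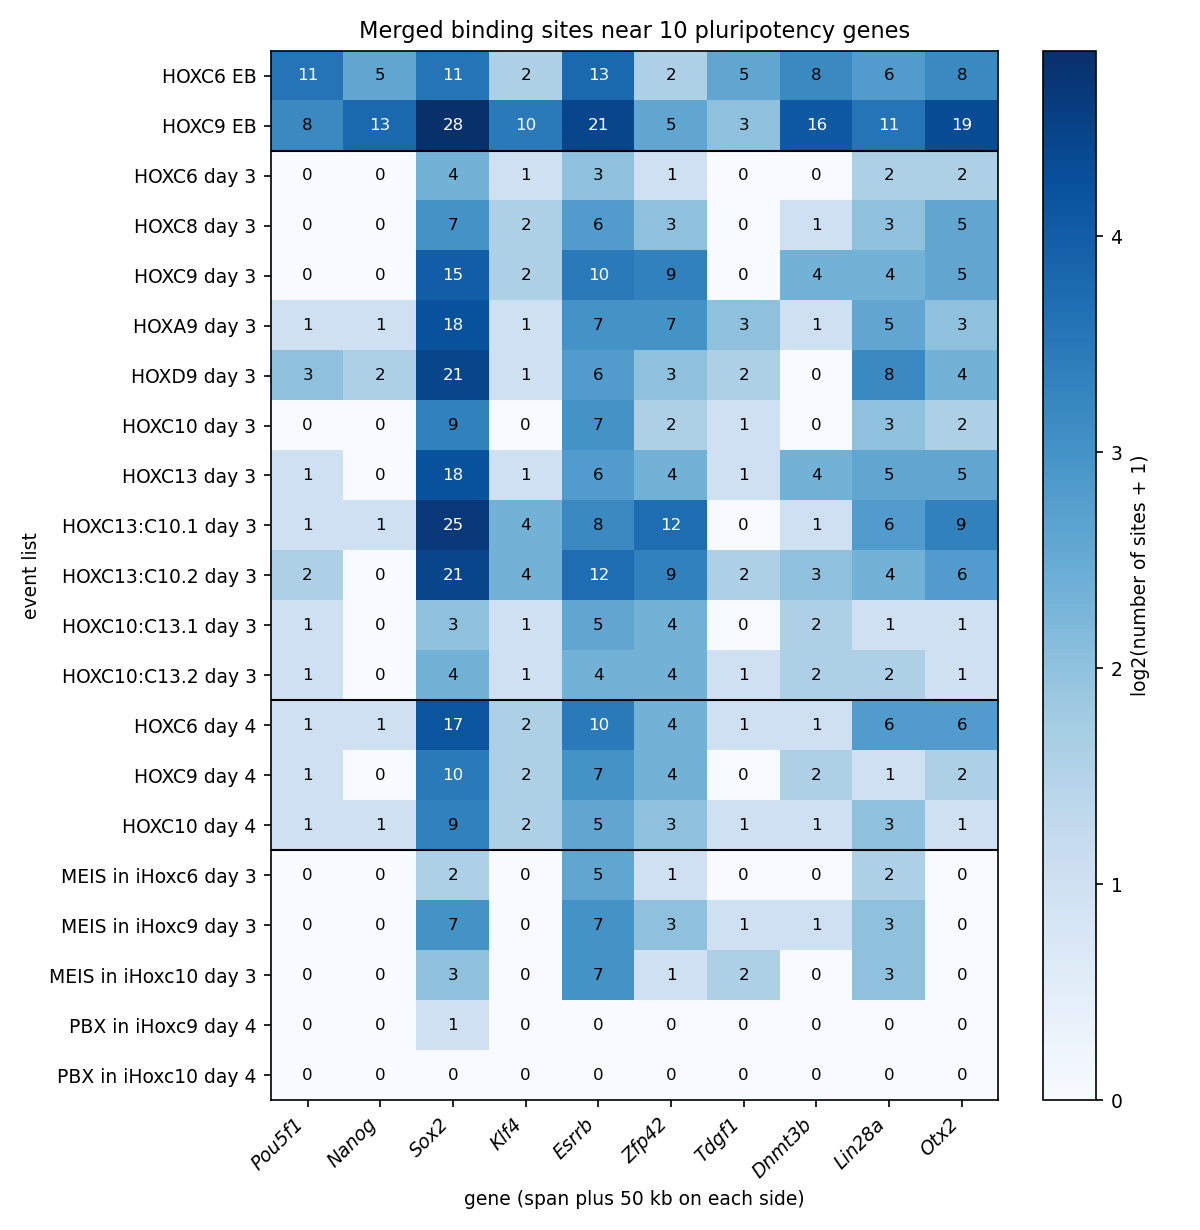
Number of merged sites within the span plus 50 kb of each of the 10 genes (columns) in each of the 21 event lists (rows), with darker blue for more sites on a log2 scale. The EB rows are filled for every gene, and the day 3 HOXC6 and HOXC9 rows show 0 sites at Pou5f1, Nanog and Tdgf1 but 4 and 15 at Sox2.

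Pou5f1 encodes OCT4, the octamer-binding factor at the centre of the circuit. Its window held 11 EB HOXC6 and 8 EB HOXC9 sites, 0 of either on day 3 and 1 of each on day 4. The day 4 site, 37.5 kb downstream and nearer to the start of Cdsn, was held by 10 lists, whereas 13 of the 14 EB sites of either factor were in none of the 19 other lists. Of the EB sites, 6 of HOXC6 and 4 of HOXC9 lay within 5 kb of the Pou5f1 start. Both factors had an event at the printed upstream site, HOXC6 with an estimated 355.8 ChIP reads and a log2 fold over control of 5.69, and HOXC9 with 250.9 reads and 4.30. Ordered by the deposited q-value, these events stood in the first 9.94% and 23.5% of their lists. A pair of further HOXC6 and HOXC9 events met 1.92 and 1.94 kb upstream, with 220.9 and 216.4 reads. The strongest EB HOXC9 event by q-value was 17.5 kb upstream, with 224.6 reads and a log2 fold of 6.82, and HOXC6 had no event there.

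Nanog encodes the homeodomain factor that stabilises the naive state. It had 5 EB HOXC6 and 13 EB HOXC9 sites, 0 and 0 on day 3, and 1 and 0 on day 4. Next to the start, HOXC6 had an event 0.106 kb upstream (72.0 reads, log2 fold 5.17) and HOXC9 one 0.536 kb downstream (55.3 reads, 4.79), and both were of middling or low rank, at 38.6% and 76.9% of their lists. The strongest HOXC9 event, 398.7 reads with a log2 fold of 5.53, lay 55.2 kb downstream in an intron of the glucose transporter gene Slc2a3. At Nanog, 15 of 16 EB sites were in no other list.

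Sox2 encodes the partner of OCT4 that is also a neural progenitor factor, and it had the most sites of the 10 genes, 57 in a window of 102.1 kb. HOXC9 had 28 sites in EBs, 15 on day 3 and 10 on day 4, and HOXC6 had 11, 4 and 17. EB binding often met later binding here, since 12 of 28 EB HOXC9 sites (42.9%, 24.5 to 62.8%) and 6 of 11 EB HOXC6 sites (54.5%, 23.4 to 83.3%) carried an event of the same factor on day 3 or day 4. The strongest events were not at the same site at every stage. The site 4.63 kb downstream was in 17 of 21 lists, the widest sharing near the 10 genes, yet HOXC9 had 61.2 reads there in EBs (70.2% down its list) and 800.1 on day 3 (3.36%), and HOXC6 had no EB event but 341.0 reads on day 3 and 1663.5 on day 4 (0.469%). The site 15.0 kb downstream, in a Sox2ot exon, held the best-ranked EB HOXC9 event (1473.5 reads, 1.93%) and had 267.3 reads on day 3. It also held the best-ranked HOXC9 event of day 4 (353.9 reads, 10.6%). The day 4 HOXC9 event 4.63 kb downstream had more reads (370.6) but a lower rank (13.8%). The strongest EB HOXC6 event (398.8 reads, 8.58%) was at the site 16.2 kb downstream.

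**Figure D2:**
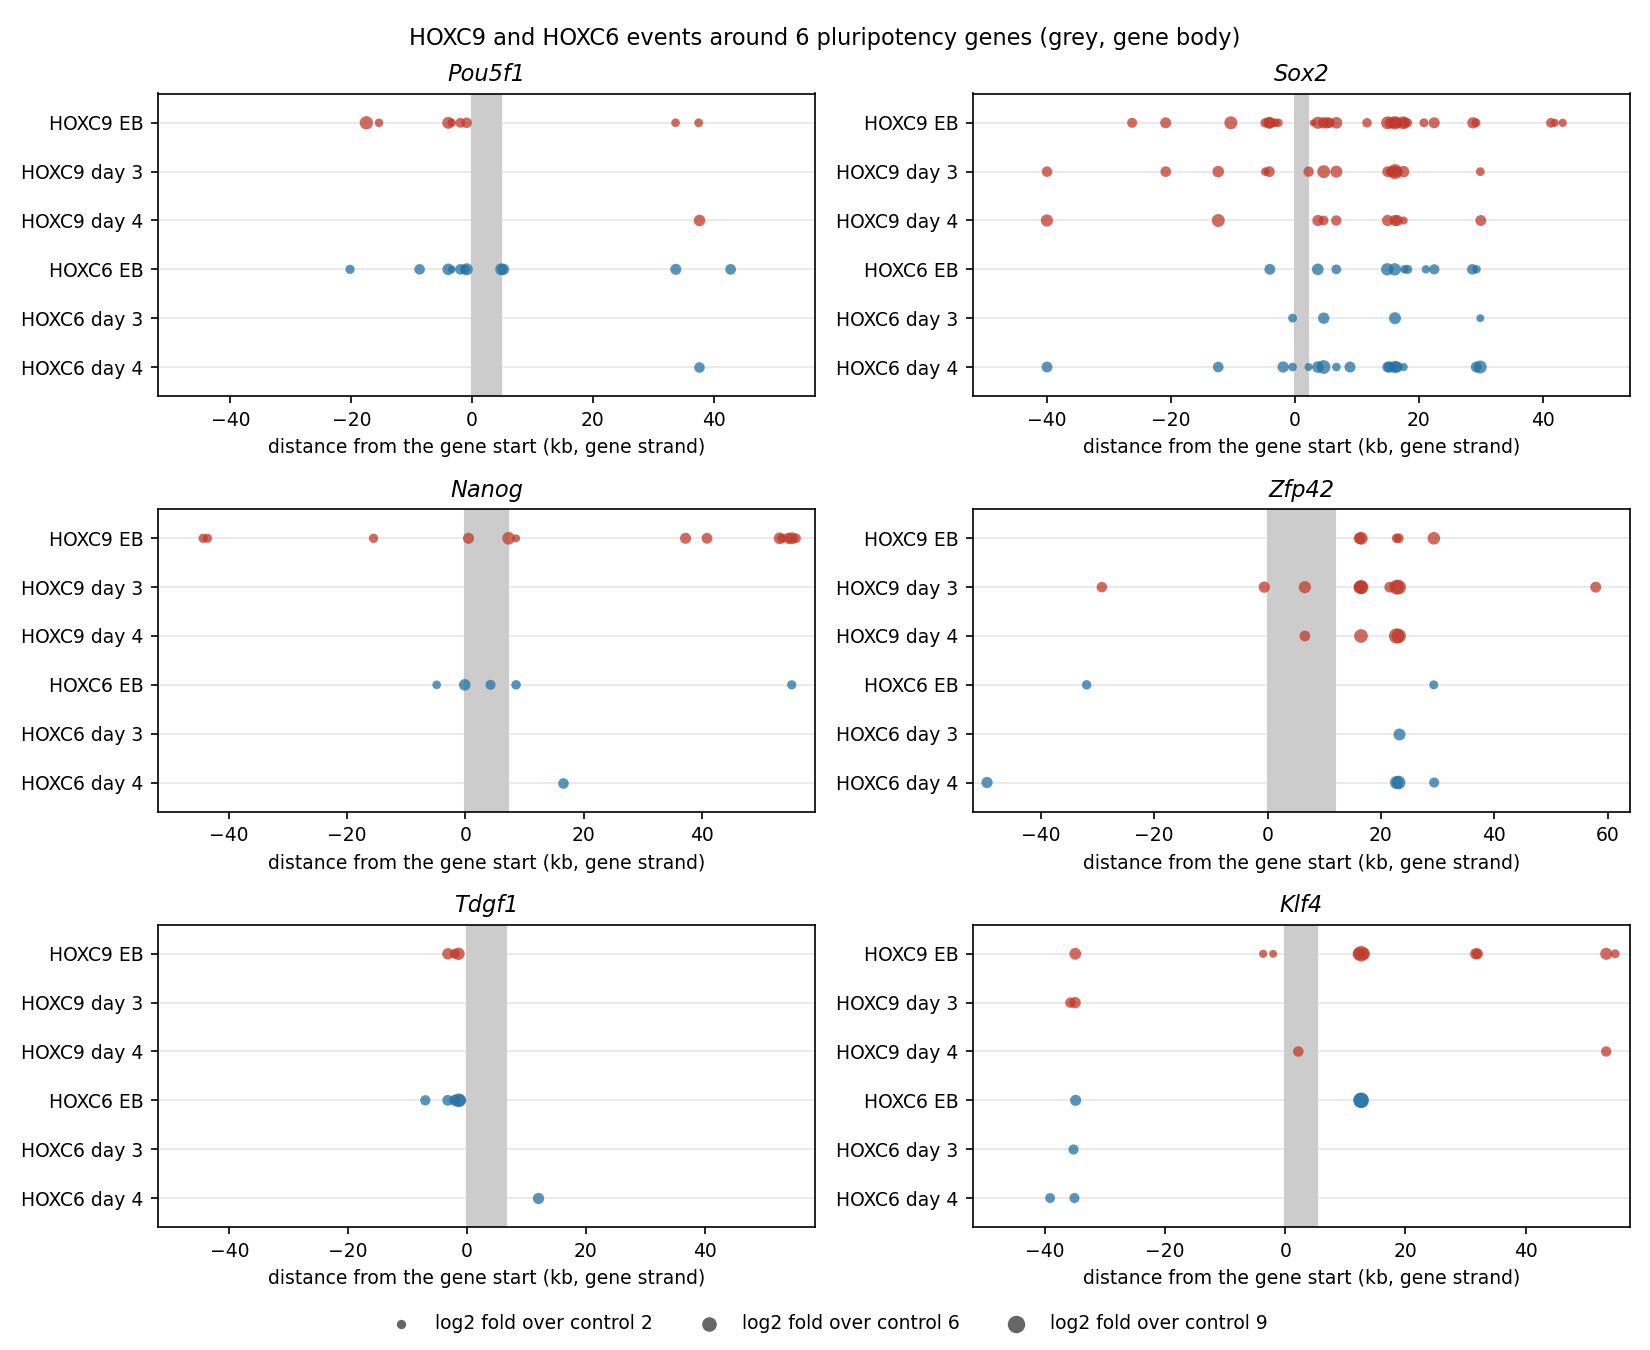
Events of HOXC9 (red) and HOXC6 (blue) in EBs, on day 3 and on day 4 around 6 of the genes, by distance from the gene start in kb along the gene's strand, with dot area proportional to log2 fold over control and the gene body in grey. Events at Pou5f1, Nanog and Tdgf1 are nearly all in the EB rows, those at Sox2 are in every row, and Zfp42 has more HOXC9 events on day 3 than in EBs.

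Klf4 encodes a zinc finger factor of the naive state. Its EB binding was dominated by the printed intergenic site 12.6 kb downstream, where HOXC9 had 3364.0 reads and a log2 fold of 9.46 (0.301% of the list) and HOXC6 had 1181.3 reads and 9.21 (1.51%). This site held the strongest EB event of either factor near Sox2 and the core and naive genes, and it was in none of the 19 other lists. Beside it HOXC9 had 9 weaker EB sites of 49.6 to 125.2 reads and HOXC6 had 1 of 54.6 reads. On day 3 there were 2 HOXC9 sites and 1 HOXC6 site, all 35.0 to 35.8 kb upstream, and each factor had 2 sites on day 4.

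Esrrb encodes an orphan nuclear receptor that supports self-renewal, and its window is the longest, 260.5 kb, so its counts are not comparable per gene with the others. HOXC9 had 21, 10 and 7 sites in EBs, on day 3 and on day 4, and HOXC6 had 13, 3 and 10. The site 148.8 kb downstream was in 16 lists and strong at every stage, with 1097.5 HOXC9 reads in EBs (3.06% of the list), 1710.3 on day 3 (0.547%) and 1092.5 on day 4 (1.15%), and with 2212.9 HOXC6 reads on day 4 (0.214%). In contrast, the EB HOXC9 event 0.745 kb inside the gene (802.5 reads, log2 fold 6.50) was shared only with a weak EB HOXC6 event of 37.1 reads. At 3.82 kb, an intronic site with 1239.8 EB HOXC9 reads kept 42.0 HOXC9 reads on day 3, at 96.9% of that list. HOXC6 had 187.5 reads there in EBs, no event on day 3 and 164.0 reads on day 4 (27.0%), and HOXC8 had 182.9 on day 3 (15.6%). Of 28 EB sites, 22 were in no other list.

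Zfp42 encodes REX1, a marker of the naive state, and it alone among the 10 genes had fewer EB than day 3 HOXC9 sites. With 100 kb on each side, all 10 genes had more EB than day 3 HOXC9 sites, so this depended on the window. HOXC9 had 5 sites in EBs and 9 on day 3, with 4 on day 4, and HOXC6 had 2, 1 and 4. Of the 5 EB HOXC9 sites, 4 were held again on day 3 or day 4, and 5 later HOXC9 sites had no EB event. The EB HOXC9 site without a later HOXC9 event was the best-ranked of the 5, 29.4 kb downstream with 591.3 reads (7.38%). The site 23.2 kb downstream was in 16 lists, with 205.4 HOXC9 reads in EBs (30.7%), 586.8 on day 3 (5.03%) and 491.4 on day 4 (4.54%). Nearby, at 22.8 kb, HOXC9 went from 106.2 EB reads to 603.8 on day 3 and 1012.9 on day 4 (1.03%). On day 3 HOXC9 also had an event 0.575 kb upstream of the start with 265.3 reads, where the EB lists had none.

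Tdgf1 encodes CRIPTO, a coreceptor of Nodal signalling made by pluripotent cells. It had 5 EB HOXC6 and 3 EB HOXC9 sites, of which 4 and 3 lay within 5 kb of the start, and it had 0 of either on day 3. HOXC6 returned to 1 site on day 4, 12.0 kb from the start with 61.5 reads, and HOXC9 to 0. Both factors met 1.43 kb upstream (HOXC6 314.3 reads and log2 fold 7.29, HOXC9 122.6 reads and 5.94) and 2.04 kb upstream (258.3 and 193.8 reads). None of its 5 EB sites was in another list, and its window holds 4 other protein-coding genes.

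Dnmt3b encodes a de novo DNA methyltransferase that is high in the formative state. HOXC9 had 16 EB, 4 day 3 and 2 day 4 sites, and HOXC6 had 8, 0 and 1. The printed site 6.21 kb upstream was EB-only, with 311.8 HOXC6 reads (12.2%) and 258.4 HOXC9 reads (22.6%). The highest-ranking EB HOXC9 event, 791.2 reads at 63.6 kb downstream (5.27%), lay in an intron of the neighbouring paralogue Dnmt3c and contained the octamer. There HOXC9 had 50.7 reads on day 3, at 77.9% of the list. The nearest protein-coding start was that of Dnmt3b for only 7 of the 16 EB HOXC9 sites.

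Lin28a encodes the RNA-binding protein that blocks let-7 maturation. HOXC9 had 11, 4 and 1 sites in EBs, on day 3 and on day 4, and HOXC6 had 6, 2 and 6. The intronic site 7.47 kb downstream held the highest-ranking event near any of the 10 genes, 5510.0 EB HOXC9 reads with a log2 fold of 9.27, which was event 95 of 128358 in its list. HOXC9 had 93.0 reads there on day 3 (50.5%), HOXC6 had no event at any stage, and HOXC13 and HOXC13:C10.1 also held it. At a second intronic site 2.37 kb downstream both factors were strong in EBs, with 816.0 HOXC6 and 1626.1 HOXC9 reads, and neither had a later event.

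Otx2 encodes the homeodomain factor of the formative state and of the forebrain. HOXC9 had 19 EB, 5 day 3 and 2 day 4 sites, and HOXC6 had 8, 2 and 6. None of its 19 EB HOXC9 sites lay within 5 kb of the start. The site 35.2 kb upstream was in 13 lists, all of HOX proteins, with 429.0 HOXC9 reads in EBs (9.57%), 276.3 on day 3 (17.6%) and 44.4 on day 4 (77.8%). HOXC6 had no EB event there but had 139.6 reads on day 3. All 8 EB HOXC6 sites lacked a HOXC6 event on day 3 and day 4.

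EB sites were denser near these genes than near protein-coding genes in general. Per Mb of window, EB HOXC6 had 56.0 sites beside 18.6 around all 21938 protein-coding genes, a ratio of 3.01, and EB HOXC9 had 105.7 beside 47.4, a ratio of 2.23. On day 3 the ratios were 1.59 for HOXC6 (10.3 beside 6.43 per Mb) and 1.77 for HOXC9 (38.6 beside 21.8), and on day 4 they were 1.66 and 1.71. The day 4 HOXC6 list is longer than the EB HOXC6 list (65502 and 43664 sites), yet it placed fewer sites near the genes, 49 against 71. Per 10000 sites of a list, 16.3 EB HOXC6 sites lay near the genes, against 7.46 on day 3 and 7.48 on day 4, and for HOXC9 the values were 10.8, 6.89 and 6.83. Without Sox2 the ratios were 1.92 for EB HOXC9, 1.33 for day 3 HOXC9 and 1.20 for day 3 HOXC6, and without Esrrb, which had the most EB HOXC6 sites, EB HOXC6 gave 3.10. When each list was limited to its 10000 best events, the ratio was 3.57 for EB HOXC6, 3.13 for EB HOXC9, 2.30 for day 3 HOXC6 and 3.14 for day 3 HOXC9, so that the HOXC9 ratios of EBs and day 3 came to lie together.

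**Figure D3:**
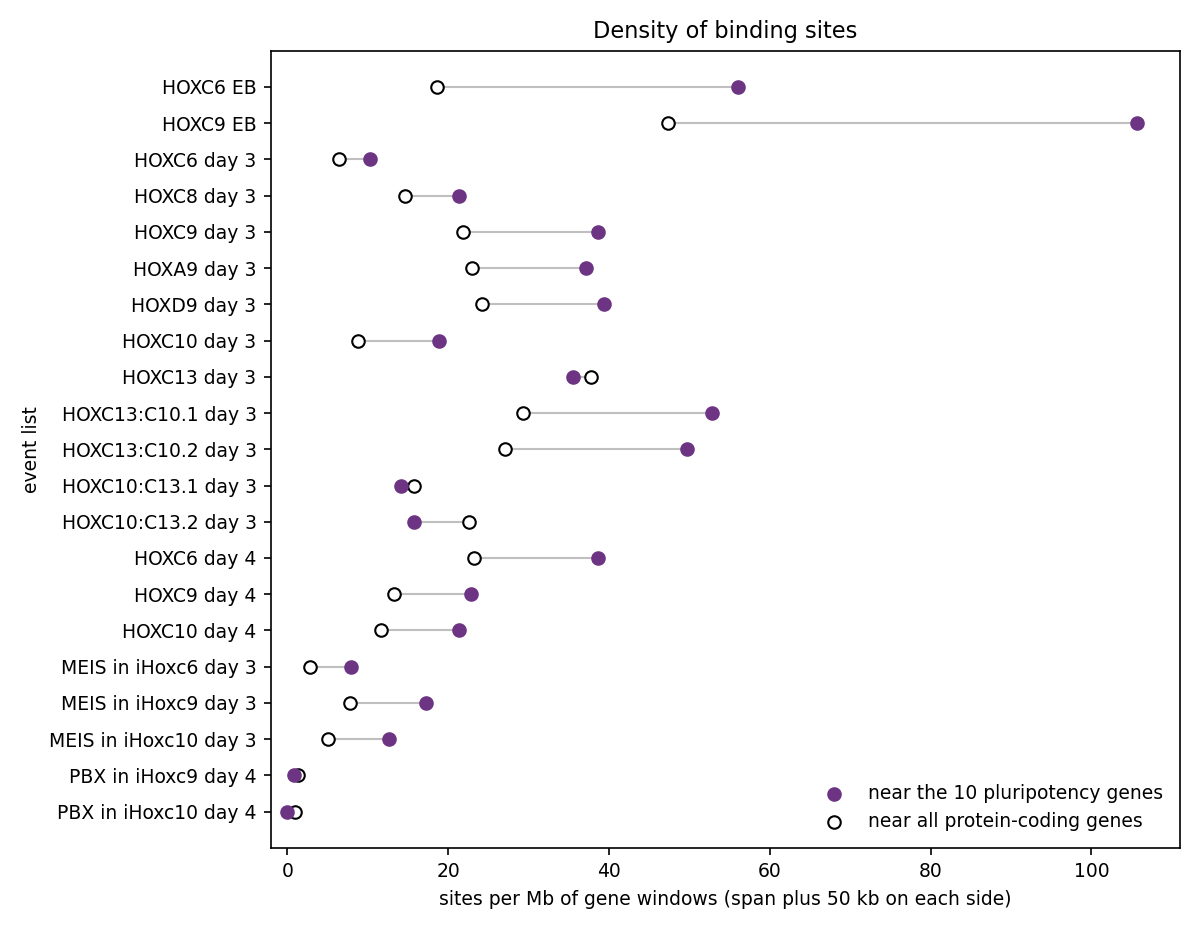
Sites per Mb of gene windows near the 10 genes (purple) and near all protein-coding genes (white) in each of the 21 lists. EB HOXC9 stands at 105.7 against 47.4 and EB HOXC6 at 56.0 against 18.6, while HOXC13 and both HOXC10:C13 chimeras lie at or below their general level.

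Counted by gene, sites decreased from EBs to day 3 at most of the 10 genes, but so did those of most genes. HOXC9 had more EB than day 3 sites at 9 of 10 genes, all but Zfp42, beside 75.4% of protein-coding genes, and HOXC6 at 10 of 10 beside 65.0%. An EB site and no day 3 site was found at 3 of 10 genes for HOXC9 (Pou5f1, Nanog and Tdgf1, beside 21% of protein-coding genes) and at 4 of 10 for HOXC6 (the same 3 and Dnmt3b, beside 37.3%). The HOXC6 count of 10 of 10 is the farthest from its background, but with 10 genes 1 gene is 10 percentage points, and none of these counts was tested. Limited to the 10000 best events of each list, 4 of 10 genes had more EB than day 3 HOXC9 sites beside 20.6%, and 5 of 10 had more HOXC6 sites beside 23.2%. Among those best events, 13 EB HOXC9 sites lay near 6 of the genes and 10 day 3 HOXC9 sites near 3, and 16 EB HOXC6 sites near 8 and 9 day 3 HOXC6 sites near 5.

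Site by site, EB binding near the 10 genes as a set carried over to later stages at shares within a few percentage points of those of EB binding anywhere. Of 134 EB HOXC9 sites, 28 had a day 3 HOXC9 event (20.9%, 14.4 to 28.8%) beside 23.5% of all, and 18 a day 4 event (13.4%, 8.16 to 20.4%) beside 15.9%. Of 71 EB HOXC6 sites, 3 had a day 3 event (4.23%, 0.880 to 11.9%) beside 7.81%, and 12 a day 4 event (16.9%, 9.05 to 27.7%) beside 19.4%. No HOXC9 event on day 3 or day 4 was present at 103 of 134 EB sites (76.9%, beside 75.1% of all), and no HOXC6 event at 59 of 71 (83.1%, beside 80.5%). The intervals given here include the share over all sites. The HOXC9 shares leaned on Sox2, and without it 16.0% of 106 EB HOXC9 sites had a day 3 event beside 23.5%, and 10.4% a day 4 event beside 15.9%, so that the differences went from -2.62 to -7.48 and from -2.44 to -5.49 percentage points.

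In the other direction the shares were higher near the genes, by an amount that depended on the events taken. Of 49 day 3 HOXC9 sites, 28 had an EB HOXC9 event (57.1%, 42.2 to 71.2%) beside 41.1% of all day 3 HOXC9 sites, and of 29 day 4 sites 18 had one (62.1%, 42.3 to 79.3%) beside 46.5%. The first difference, 16.01 percentage points, became 8.87 without Sox2, 5.99 when sites were given to the nearest protein-coding start, and 2.58 or 2.79 with the 10000 best events by q-value or by reads, where 10 day 3 sites remained near the genes. For HOXC6, 12 of 49 day 4 sites had an EB event (24.5%, 13.3 to 38.9%) beside 13.0%, and 3 of 13 day 3 sites (23.1%, 5.04 to 53.8%) beside 19.6%. The intervals of day 4 HOXC9 and day 3 HOXC6 include the share over all sites. The day 3 HOXC6 difference turned to -1.04 percentage points when sites were given to the nearest protein-coding start. EB sites were also denser near these genes, and the part of that density in these shares was not tested. Between day 3 and day 4 the genes showed the general picture: 24 of 49 day 3 HOXC9 sites were held on day 4 (49.0%, beside 49.2%), 24 of 29 day 4 HOXC9 sites on day 3 (82.8%, beside 82.3%), 12 of 13 day 3 HOXC6 sites on day 4 (92.3%, beside 92.7%) and 12 of 49 day 4 HOXC6 sites on day 3 (24.5%, beside 24.7%).

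**Figure D4:**
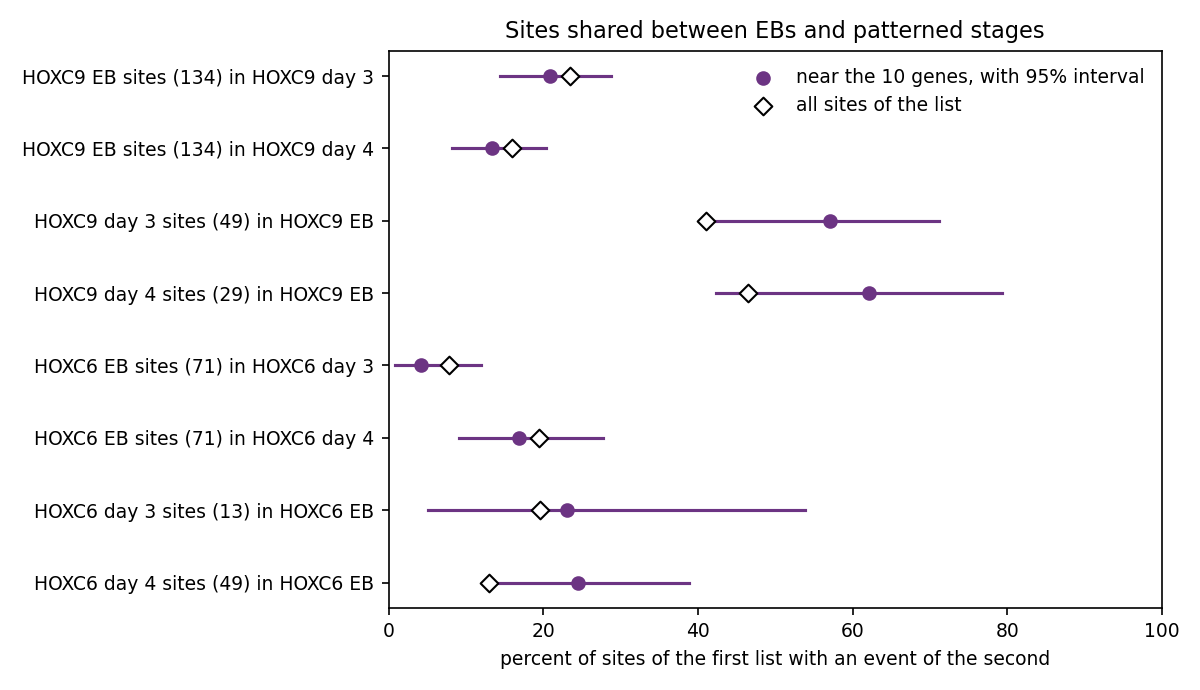
Percent of sites of the first list that carry an event of the second, for sites near the 10 genes (purple, with exact 95% binomial intervals) and for all sites of the first list (white diamonds), with the number of sites near the genes in parentheses. From EBs forward the diamonds lie inside the intervals (20.9% beside 23.5% for HOXC9 on day 3), and from day 3 HOXC9 back to EBs the share near the genes is 57.1% beside 41.1%.

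Grouped by role, EB sites of Sox2 were held later more often than those of the other groups pooled, although among single genes Zfp42 had the higher HOXC9 share, 4 of 5. For the 6 core and naive genes Pou5f1, Nanog, Klf4, Esrrb, Zfp42 and Tdgf1, 12 of 60 EB HOXC9 sites (interval 10.8 to 32.3%) and 3 of 38 EB HOXC6 sites (7.89%, 1.66 to 21.4%) had a day 3 or day 4 event of the same factor. For Dnmt3b, Lin28a and Otx2 the counts were 7 of 46 (15.2%, 6.34 to 28.9%) and 3 of 22 (13.6%, 2.91 to 34.9%). The Sox2 share of 42.9% for HOXC9 is above both, with intervals that overlap them. For HOXC6 the Sox2 share of 54.5% (23.4 to 83.3%) is also above both. Its interval overlaps that of Dnmt3b, Lin28a and Otx2 but not that of the core and naive genes. The sites of 1 gene share a locus and are not independent.

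EB sites held later were stronger in EBs than those that were not. The 31 EB HOXC9 sites near the genes with a later event had a median log2 fold of 5.42 and a median rank of 21.2% of the list, beside 4.28 and 54.4% for the 103 without one. Over all EB HOXC9 sites the medians were 5.11 and 38.4% with a later event, and 4.75 and 55.2% without. For HOXC6 the 12 sites near the genes with a later event had a median log2 fold of 4.55 and the 59 without one 4.31, beside 4.42 and 4.31 over all sites. Strong EB sites lost later were also present, and the Klf4 site at 12.6 kb is the highest of them.

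In EBs the factors met at 46 sites near the genes. That was 34.3% of EB HOXC9 sites (26.3 to 43.0%), beside 25.3% of all EB HOXC9 sites, and 64.8% of EB HOXC6 sites (52.5 to 75.8%), beside 71.9%. The HOXC9 share thus lies above the share over all sites and the HOXC6 share includes it. HOXC6 without HOXC9 was found at 25 EB sites, most often at Esrrb with 7 and Pou5f1 with 6, and HOXC9 without HOXC6 at 88, most often at Sox2 with 19 and Esrrb with 15. On day 3, 11 of the 49 HOXC9 sites carried HOXC6 (22.4%, beside 17.5%) and 11 of the 13 HOXC6 sites carried HOXC9 (84.6%, beside 71.3%).

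Some of the sites lay close to the starts. Within 5 kb of the gene's own start lay 22 of 71 EB HOXC6 sites (31.0%, 20.5 to 43.1%), against 7 of 49 on day 4 (14.3%, 5.94 to 27.2%) and 2 of 13 on day 3 (15.4%). For HOXC9 these were 26 of 134 in EBs (19.4%), 6 of 49 on day 3 (12.2%, 4.63 to 24.8%) and 3 of 29 on day 4 (10.3%). The intervals of the stages overlap for both factors. Counted to the start of any protein-coding gene, the 5 kb share was 36.6% of EB HOXC6 sites near the genes beside 10.7% of all, 23.1% beside 10.4% on day 3 and 22.4% beside 8.65% on day 4. For HOXC9 it was 21.6% beside 9.11% in EBs, 14.3% beside 6.32% on day 3 and 13.8% beside 7.29% on day 4. The windows were drawn around gene starts, so shares above those of all sites follow from the way they were chosen. Most EB HOXC9 sites near the genes lay between genes (49 of 134) or in introns of protein-coding (44) or non-coding (32) genes, and for 110 of the 134 (82.1%) the nearest protein-coding start was that of the pluripotency gene itself.

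Of the 159 EB sites of either factor, 107 (67.3%) were in none of the 19 other lists, beside 59.4% of all EB sites. Gene by gene the count ran from 1 of 6 at Zfp42 and 10 of 30 at Sox2 through 7 of 14 at Lin28a, 13 of 19 at Otx2, 7 of 10 at Klf4, 22 of 28 at Esrrb and 14 of 17 at Dnmt3b to 13 of 14 at Pou5f1, 15 of 16 at Nanog and 5 of 5 at Tdgf1. Zfp42 and Sox2, the gene kept on in neural progenitors, thus stood at one end of this order, and Pou5f1, Nanog and Tdgf1 at the other. The remaining 103 of the 262 sites were held only by patterned lists, 27 of them at Sox2 and 18 at Esrrb.

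Sox2 had the most sites of the other full-length HOX factors on day 3 too. HOXA9 had 47 sites near the genes, with 18 at Sox2 and 7 each at Esrrb and Zfp42, and HOXD9 had 50, with 21 at Sox2, 8 at Lin28a and 6 at Esrrb, whereas HOXC8 had 27, with 7 at Sox2 and 6 at Esrrb, and HOXC10 had 24, with 9 and 7. At Pou5f1, Nanog and Tdgf1 these factors had few events, such as a HOXA9 event of 120.1 reads at Pou5f1 (34.0% of its list). At 16.3 kb from the Nanog start HOXD9 had 103.4 reads and HOXA9 78.2. HOXC13 had 1 event at Pou5f1, with 288.2 reads and a log2 fold of 4.79 (11.4% of its list). HOXC13 departed from the other factors. Its 45 sites gave 35.5 per Mb near the genes beside 37.8 in general, a ratio of 0.938, while the ratios of HOXC8, HOXA9, HOXD9 and HOXC10 were 1.46, 1.61, 1.63 and 2.16.

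The 4 chimeras divided by the homeodomain part they carry. HOXC13:C10.1 and HOXC13:C10.2, with the HOXC10 homeodomain part, had 67 and 63 sites near the genes and ratios of 1.81 and 1.83, whereas HOXC10:C13.1 and HOXC10:C13.2, with that of HOXC13, had 18 and 20 sites and ratios of 0.900 and 0.696. At Sox2 the counts were 25 and 21 against 3 and 4, beside 9 for HOXC10 and 18 for HOXC13. Signal fractions of the first pair were also higher (0.32 to 0.527) than those of the second (0.134 to 0.201), and their part in the counts was not tested. The division was visible at some single sites and not at others. At the Esrrb site 148.8 kb downstream HOXC10 had 244.4 reads, HOXC13:C10.1 2334.5 and HOXC13:C10.2 1917.5, and HOXC13 and both HOXC10:C13 chimeras had no event. At the Sox2 site 16.2 kb downstream HOXC10 had 119.1 reads and the HOXC13:C10 chimeras 1261.3 and 652.9, and the same 3 lists were empty. The Zfp42 site 23.2 kb downstream behaved otherwise, with an event in every HOX list of day 3, including HOXC13 with 170.5 reads and the HOXC10:C13 chimeras with 85.7 and 149.2. The Sox2 site 4.63 kb downstream held both HOXC10:C13 chimeras weakly (56.4 and 51.1 reads), beside 480.0 and 775.8 reads for the HOXC13:C10 chimeras. At the Lin28a site 7.47 kb downstream HOXC13 and HOXC13:C10.1 had 71.6 and 71.0 reads. HOXC10 and both HOXC10:C13 chimeras had no event there. The Klf4 site 35.8 kb upstream held all 4 chimeras and neither HOXC10 nor HOXC13.

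**Figure D5:**
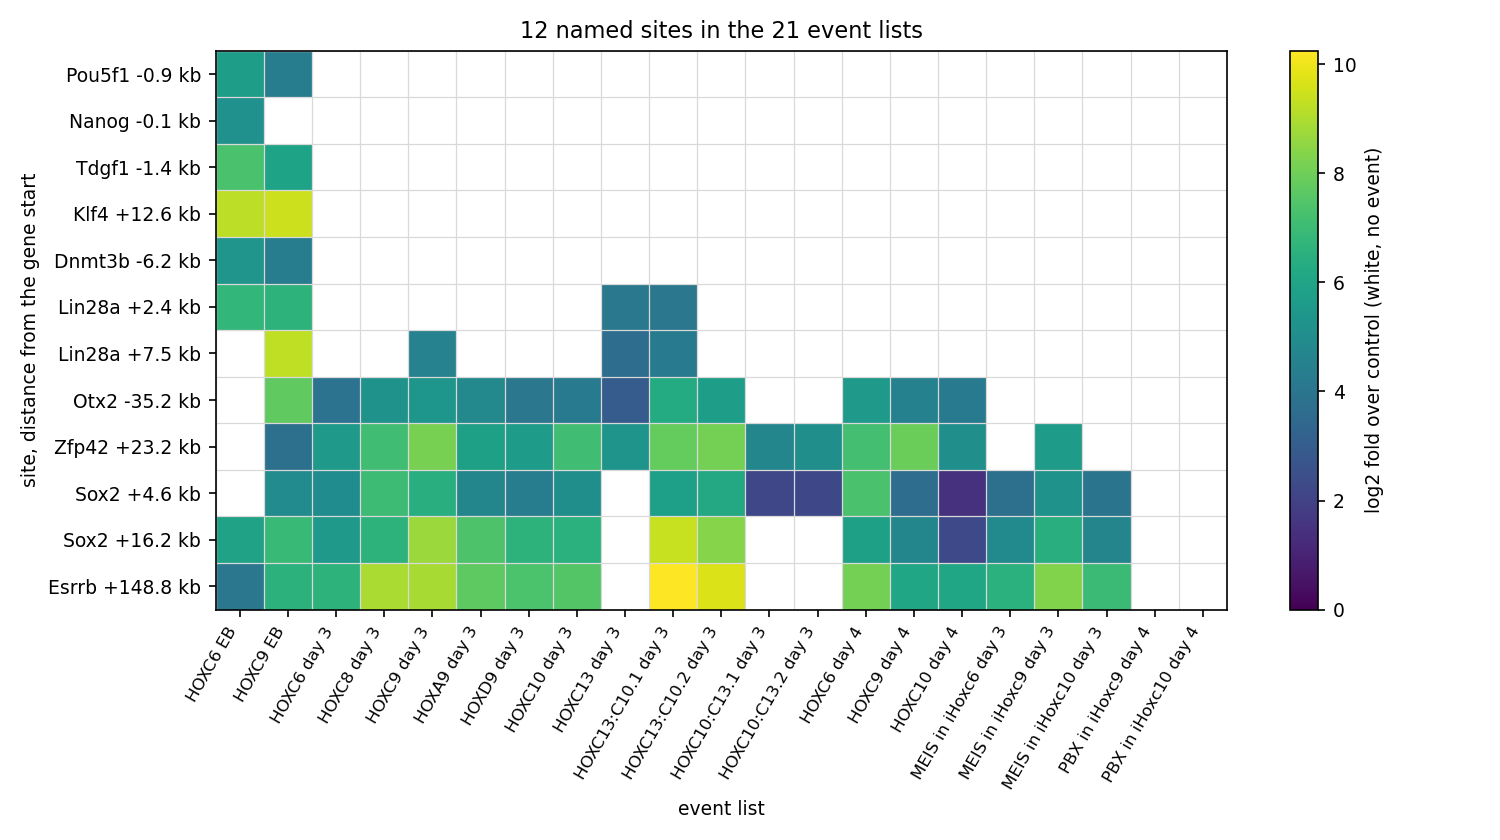
Log2 fold over control at 12 of the sites described (rows, by distance from the gene start) in the 21 event lists (columns), with white where a list had no event. Sites at Pou5f1, Nanog, Tdgf1, Klf4 and Dnmt3b are filled in the EB columns alone, and the lower rows are filled across HOX lists, with HOXC13 white at both Sox2 sites and at Esrrb.

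HOX cofactors of the TALE class, MEIS and PBX, bind DNA beside HOX proteins. MEIS had 10 sites near the genes in iHoxc6 cells, 22 in iHoxc9 cells and 16 in iHoxc10 cells, or 2.77, 2.21 and 2.49 times the density around all protein-coding genes. Most were at Esrrb, with 5, 7 and 7 sites in the longest window, Sox2, with 2, 7 and 3, and Lin28a, with 2, 3 and 3. At Pou5f1, Nanog, Klf4 and Otx2 there were 0 in any of the 3 lists. Both Sox2 sites printed above and the Esrrb site carried MEIS in all 3 lists, the Esrrb site with 55.4, 112.1 and 56.8 reads. EB HOX sites near the genes met a day 3 MEIS event at 9 of 134 for HOXC9 (6.72%, beside 6.02% of all) and at 5 of 71 for HOXC6 (7.04%, beside 9.62%), which is near the background. PBX had 1 site, at Sox2, in iHoxc9 cells and 0 in iHoxc10 cells, from lists of 1165 and 848 events, and at that number little could have been detected.

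Having a site at all said little about these genes. At least 1 site was held by 10 of 10 genes in the EB HOXC6 and EB HOXC9 lists (78.1% and 89.3% of protein-coding genes), by 6 in day 3 HOXC6 (45.5%), 7 in HOXC8 (65.8%), 7 in day 3 HOXC9 (70.4%), 10 in HOXA9 (76.5%), 9 in HOXD9 (77.6%), 6 in HOXC10 (46.9%) and 9 in HOXC13 (84.3%). For the chimeras HOXC13:C10.1 and HOXC13:C10.2 it was 9 (78.0%) and 9 (76.8%), and for HOXC10:C13.1 and HOXC10:C13.2 it was 8 (63.3%) and 9 (72.4%). On day 4 HOXC6 held 10 (75.5%), HOXC9 8 (61.8%) and HOXC10 10 (63.7%). MEIS held 4 in iHoxc6 cells (24.1%), 6 in iHoxc9 cells (46.6%) and 5 in iHoxc10 cells (36.8%). PBX held 1 in iHoxc9 cells (16.9%) and 0 in iHoxc10 cells (13%). The number of sites set some genes apart where their presence did not. Fewer EB HOXC6 sites than Pou5f1 were found at 96.9% of protein-coding genes, as for Sox2, and 98.0% had fewer than Esrrb, whereas Klf4 and Zfp42 stood at 42.7%. For EB HOXC9 the order began with Sox2 (96.8%), Esrrb (94.6%) and Otx2 (93.5%) and ended with Tdgf1 (30.4%), and these percentages are not adjusted for gene length.

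Other genes of the network behaved in a similar way. Around 22 further naive and general pluripotency genes, such as Klf2, Tfcp2l1 and Prdm14, EB HOXC9 had 93.3 sites per Mb and day 3 HOXC9 23.6, and HOXC6 had 46.5 and 8.11. Around all protein-coding genes the densities in EBs and on day 3 were 47.4 and 21.8 for HOXC9 and 18.6 and 6.43 for HOXC6. In all these densities a site in overlapping windows was counted for each window. The 22 windows gave 253 counts for 232 EB HOXC9 sites, and that of Dppa3 overlaps the Nanog window. Of these 22 genes, 22 had more EB than day 3 HOXC9 sites and 20 more HOXC6 sites, beside 75.4% and 65.0% of protein-coding genes. Around 9 further formative and primed genes, such as Fgf5 and Pou3f1, the densities were 115.3 and 52.6 for HOXC9 and 66.4 and 15.7 for HOXC6, with more EB sites at 9 and 8 of 9. Around 10 neural progenitor and motor neuron genes, such as Olig2 and Isl1, HOXC9 had 83.9 sites per Mb in EBs and 75.6 on day 3, and HOXC6 had 41.5 and 29.5, with more EB than day 3 sites at 5 and 6 of 10. Day 4 HOXC6 had 79.3 sites per Mb there, above its EB density, while near the 10 pluripotency genes it fell from 56.0 to 38.6. EB HOXC9 sites held on day 3 were 17.7% of 232 at the further naive genes, 26.4% of 125 at the formative genes and 33.0% of 91 at the neural genes. The share over all EB HOXC9 sites was 23.5%. These differences between gene lists were described from 1 list per group and were not tested.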

How the data were processed

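Chromatin immunoprecipitation followed by sequencing was analysed in 42 samples of 23 groups, 21 of them with an event list and 2 of them controls. The authors aligned reads to mm10 with Bowtie 1.0.1 and called events at q under 0.001 with MultiGPS, and the submitters' processing notes also name Picard 2.8.2 and edgeR 3.22.5. For each event the deposited lists give an estimated count of ChIP reads per group, a log2 fold over the scaled control and a q-value on a log2 scale, a score used here only to rank events within a list. The authors' columns of edgeR comparisons between groups and the control reads were not used. Headers of the day 4 HOX lists number the days in another way than the labels do, and groups follow the labels. Values of different lists rest on different depths and controls and are given side by side.

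Event positions were placed on GENCODE vM21 genes of GRCm38. No event lay past a chromosome end (0 events), and all 173080 EB events with a deposited sequence matched GRCm38 within 150 bp. Of 1087512 events, 587 off chromosomes 1 to 19, X and Y were left out. Sites were counted with Python 3.11.15, pandas 2.3.3, numpy 2.4.6, scipy 1.17.1 and pysam 0.24.0, with functions tested on simulated data. For each gene the best-ranked EB HOXC9 and EB HOXC6 sites, the site in the most lists and the EB site nearest to the start were listed. The text describes only some of these sites, and events described beside them were chosen after their values were seen. Motifs were searched within 50 bp of a site's middle. The 10 genes, the further gene lists, the motifs and the roles were chosen with earlier results of these data known. Alternatives were a window of 20 or 100 kb, merging within 50 or 200 bp, the 10000 best events, lists of equal length, a stricter q-value of 1e-06, assignment to the nearest protein-coding start and leaving out the gene with the most sites.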

Additional observations from a re-analysis of the deposited data

How the results depend on the processing

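Over 12 results and 90 alternatives, 8 turned direction, 3 moved by over 1.5 times and 79 did neither, where differences in share were judged by their sign alone. Their size was not stable: day 3 HOXC9 to EBs ran from 2.58 to 27.83 percentage points (16.01 as reported), EB HOXC9 to day 3 from -7.48 to -0.74 (-2.62), and day 3 HOXC6 to EBs up to 22.10 (3.52). The shares of EB sites held later depended on how many events were taken. In percentage points near the genes minus all sites, EB HOXC9 to day 4 went from -2.44 to 6.50 with the 10000 best events by q-value, 6.17 by reads and 0.34 with lists of equal length. EB HOXC6 to day 3 went from -3.58 to 4.51 and 8.48, and EB HOXC6 to day 4 from -2.53 to 4.58 and 8.54, by q-value and by reads. Day 3 HOXC6 to EBs went from 3.52 to -1.04 with assignment to the nearest protein-coding start. These limited sets hold 13 to 49 sites near the genes and the cause was not tested. With the 10000 best events, chosen after seeing the data for these counts, genes with more EB than day 3 sites fell from 9 to 4 for HOXC9 and from 10 to 5 for HOXC6, and the density ratio of day 3 HOXC9 rose from 1.77 to 3.14. No paired analysis was possible because each group has 1 list made from all of its libraries, which also prevents leaving out a replicate, and the 5 lists of MEIS and PBX rest on 1 library each.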
